A study of Homo sapiens with 4 samples.

Results

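Tight junctions seal the space between neighbouring epithelial cells and separate the apical from the basolateral surface. Their strands are built from claudins and from MARVEL-domain proteins, which are tied to the actin cytoskeleton by cytoplasmic scaffolds. The Crumbs and PAR complexes place the junction at the apical border. In gut epithelia the same cells carry a cascade of membrane-anchored serine proteases with dedicated inhibitors, and splicing factors that are restricted to epithelia. The 30 genes described here were chosen by symbol from these families, with earlier results of these data known. They comprise 11 claudins, 4 other junction membrane proteins, 3 scaffolds, 4 polarity genes, 5 genes of surface proteases, their inhibitors and EPCAM, 2 epithelial splicing factors and the P-cadherin gene CDH3. Of the 30, 29 had a probe set paired with 1 gene on the array, out of 18132 genes so measured, and F11R was not analysed here.

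The arrays were Affymetrix Human PrimeView arrays of total RNA from OE33, an established cell line of human oesophageal adenocarcinoma. One group of 2 arrays came from cells given a pool of siRNAs against ARID1A (ON-TARGETplus SMARTpool), and the other group of 2 from cells given a non-targeting siRNA pool, called mock in the labels. Both groups were grown with 15% serum, received 50 nM siRNA 24 hours after plating and were harvested 48 hours after transfection. ARID1A is a DNA-contacting component of a large chromatin remodeller, SWI/SNF, and the series asks which genes lie downstream of it. The model is 1 cell line with a transient and partial loss of 1 mRNA.

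All values are log2 expression as deposited, and a difference is knockdown minus mock on that scale. Each gene was read at its main probe set, the one with the highest mean over the 4 arrays. Adjusted p-values are from limma with Benjamini-Hochberg adjustment over all probe sets, and a gene passed the test at an adjusted p under 0.05. ARID1A, the targeted gene, stood at 7.53 in both knockdown arrays and at 9.28 and 9.33 in mock ones, so that 29.2% of its mock level was left (adjusted p = 0.0218, n = 2 each). Of its 6 probe sets, 4 passed the test, with 29.2% to 38.7% left, while the other two had 77.7% and 108%, so the mean of all 6 gave 47.8%. The epithelial markers KRT8, KRT18, KRT19, KRT7, CDH1 and EPCAM together had a mean log2 value of 13.4 in each of the 4 arrays. Singly they went different ways. KRT7 lay lower in both knockdown arrays, with a difference of -0.17, as did 23.6% of all genes. KRT8, KRT18 and CDH1 lay higher in both, with 0.04, 0.07 and 0.11, as did 25.8% of all genes. The groups of KRT19 and EPCAM overlapped. The mesenchymal intermediate filament gene VIM lay between 4.14 and 4.27. Among the 8 mesenchymal markers listed, the matrix gene FN1 was bright and read 11.01 and 11.09 in knockdown against 10.86 and 10.81 in mock arrays (0.22, adjusted p = 0.248). COL1A1 and COL1A2 lay lower in both knockdown arrays, by differences of -0.17 and -0.08, and the groups of the other 5 overlapped. The 3 leukocyte markers measured had mean values of 4.50 and 4.45 in knockdown and 4.57 and 4.53 in mock arrays. For the 3 endothelial markers these were 5.44 and 5.43 against 5.57 and 5.61. All 3 lay lower in both knockdown arrays, as did 23.6% of all genes. What part these markers have in the results was not tested. An array has no zero level, so these values do not show whether the markers were expressed. Medians of the 4 arrays ranged between 5.89 and 5.93. The excess of 3′ over 5′ signal reports on RNA integrity. For beta-actin it was 1.21 and 1.10 with knockdown and 1.04 and 0.995 without it, so it moved with the groups. For GAPDH it was 0.201 and 0.215 with knockdown and 0.199 and 0.211 without it, and the groups overlapped. The part of RNA integrity in the results below was not tested.

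No tight junction or polarity gene passed the test: the count was 0 of 29, where 0.403% of all genes passed. The smallest adjusted p was 0.0643, for PRSS8. By limma's unadjusted p, taken under 0.05, 6 of these 29 genes were higher in the knockdown arrays (20.7%, against 9.76% of all genes) and 2 were lower (6.90%, against 7.25%), which makes 8 in either direction (27.6%, against 17.0%). The 6 were CLDN1, PRSS8, PARD6B, ESRP1, TJP3 and PARD3, and the 2 were CLDN12 and CLDN15. The arrays of the groups did not overlap for 21 genes. Knockdown lay above mock for 14 of them (48.3% of 29, against 25.8% of all genes) and below mock for 7 (24.1%, against 23.6%). The median difference of the 29 was 0.04, beside 0.00 for all genes, and 16 of the 29 differences were positive (48.6% of all genes). Because the genes were chosen with earlier results of these data known, these shares describe the list and do not test it. RMA values are relative within an array, and in a bulk sample fewer cells expressing a gene and less RNA per cell cannot be told apart.

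These counts turn on the spread that limma assumes and on how the arrays are scaled. With quantile normalization the count stayed at 0 of 29, and 137 of 18132 genes passed. With the arrays centred on their medians, CLDN1 and PRSS8 passed (2 of 29, where 1.58% of all genes did), and the same pair passed with dim probe sets left out (4.09% of all). With the mean of all probe sets of a gene CLDN1 alone passed (1.96% of all). With a prior spread that follows the signal, 7 of the 29 passed at an adjusted p under 0.05, where 8.63% of all genes did. They were CLDN1, PRSS8, PARD6B, PARD3, ESRP1, CLDN12 and CLDN15. Without the dim probe sets limma was fitted anew, and 7 of 26 members were higher at an unadjusted p under 0.05. Of the 12747 genes kept 14.2% were, so the share over all genes was itself larger in that fit. The parts of brightness and of the new fit in this were not told apart. With any 1 array left out, 4 or 5 of the 29 were higher at that p, where 5.23% to 8.05% of all genes were. TJP3 was lost without knockdown replicate 1 or mock replicate 2, ESRP1 without knockdown replicate 2 or mock replicate 2, and PARD3 without knockdown replicate 1, knockdown replicate 2 or mock replicate 1. CLDN1, PRSS8 and PARD6B were higher at that p in every such fit.

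**Figure D1:**
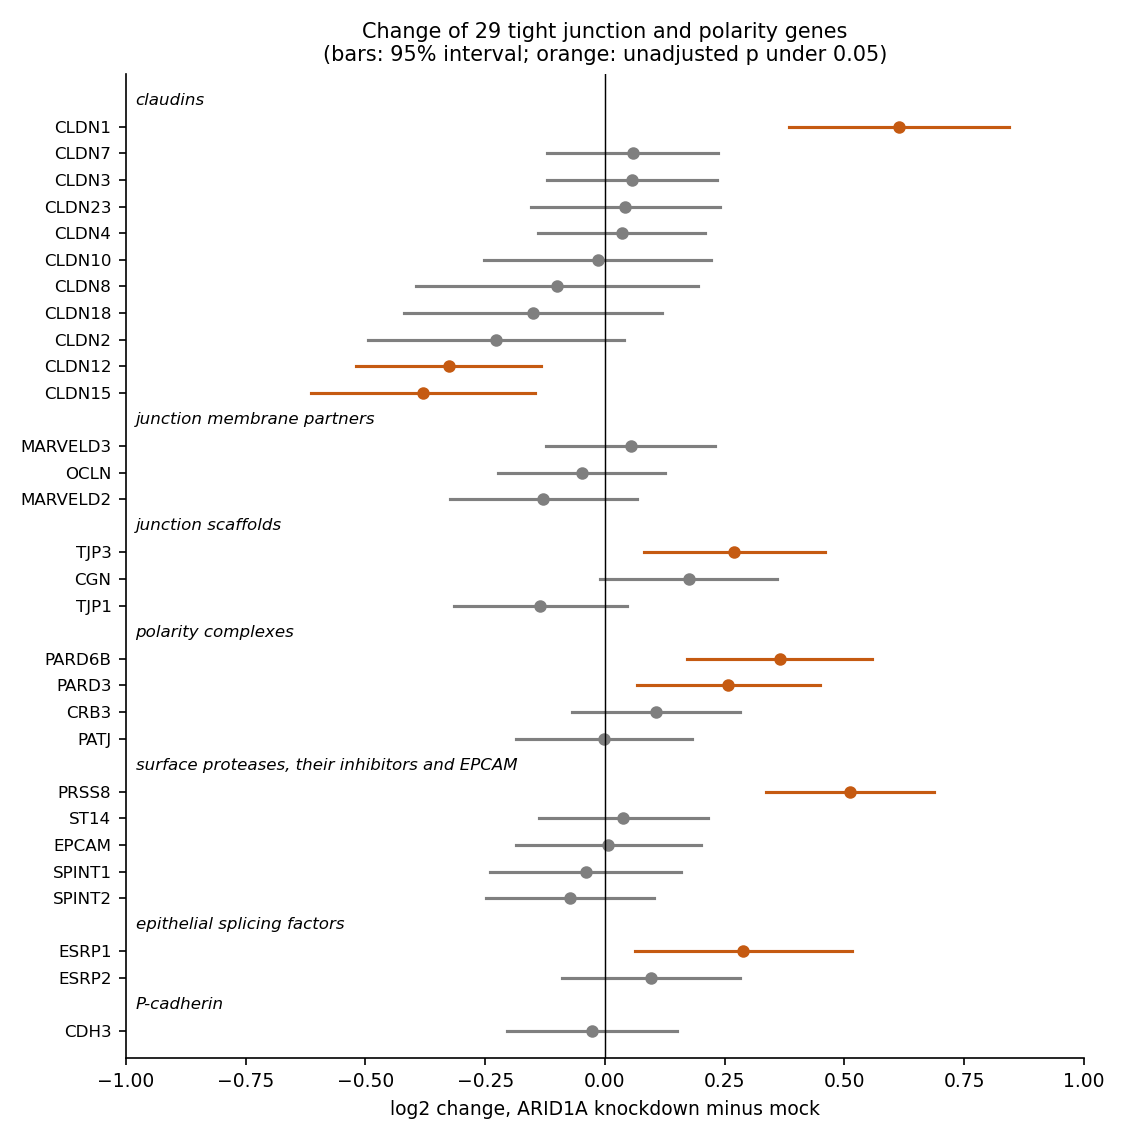
Difference between ARID1A knockdown and mock (x axis, log2 units) for each of 29 genes (y axis), grouped by role, with 95% confidence intervals from limma; orange marks an unadjusted p under 0.05. CLDN1 at 0.62 and PRSS8 at 0.51 lie farthest to the right and CLDN15 at -0.38 farthest to the left, and most other intervals cross 0.

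Among the claudins the members went different ways. CLDN1, a sealing claudin of the barrier, read 9.44 and 9.60 with knockdown against 8.97 and 8.85 with mock siRNA at probe set 11728232_a_at. Both knockdown arrays lay above both mock arrays, with a gap of 0.47 between the groups. The difference was 0.62 (SE 0.0924), or 153% of mock with a 95% confidence interval of 131% to 180%, and its adjusted p was 0.0751. By size this difference ranked 178th among 18132 genes. CLDN1 also had the same sign at each of its 3 other probe sets, with differences of 0.58, 0.61 and 0.48.

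CLDN12 and CLDN15 stood on the other side. CLDN12, a claudin without the usual PDZ-binding tail, read 9.91 and 10.01 in knockdown against 10.31 and 10.26 in mock arrays (11720206_s_at). The groups were apart by 0.25, and the difference was -0.33 (SE 0.0779, adjusted p = 0.152). This probe set can match other sequences, and the second probe set of CLDN12, which is not of that kind, had a difference of -0.14 with an adjusted p of 0.625. CLDN15, which forms cation pores in the intestine, read 8.59 and 8.39 in knockdown against 8.84 and 8.89 in mock arrays (11722539_at). Its groups too were apart by 0.25, with a difference of -0.38 (SE 0.0941, adjusted p = 0.161), and the second probe set had -0.27. Without mock replicate 2, CLDN12 alone was lower at an unadjusted p under 0.05, so the count of 2 became 1. The difference of CLDN15 was then -0.35.

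The claudins typical of simple epithelia had small differences at their main probe sets. CLDN4 read 11.94 and 11.94 in knockdown and 11.90 and 11.91 in mock arrays, and its 95% interval ran from 90.8% to 116% of mock. At probe set 11758355_s_at CLDN4 had 0.17 (adjusted p = 0.340), with an interval of 99.0% to 128%. CLDN7, which binds EPCAM at the lateral membrane, read 11.27 and 11.30 against 11.25 and 11.21, with an interval of 92.0% to 118%. CLDN3 had an interval of 92.0% to 118% and CLDN23 one of 89.9% to 118%. Differences within these bounds could not be seen with 2 arrays a group.

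The remaining claudins gave low signals. CLDN2, which forms a pore for cations and water, read 4.90 and 5.05 in knockdown against 5.09 and 5.32 in mock arrays, a difference of -0.23 (adjusted p = 0.374). CLDN18, a claudin of stomach and lung, had a difference of -0.15, and CLDN8 and CLDN10 had -0.10 and -0.02. The groups of CLDN8, CLDN10 and CLDN18 overlapped. These 3 had mean values under 5, the limit used in the alternative that leaves dim probe sets out, and at such levels RMA understates differences.

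**Figure D2:**
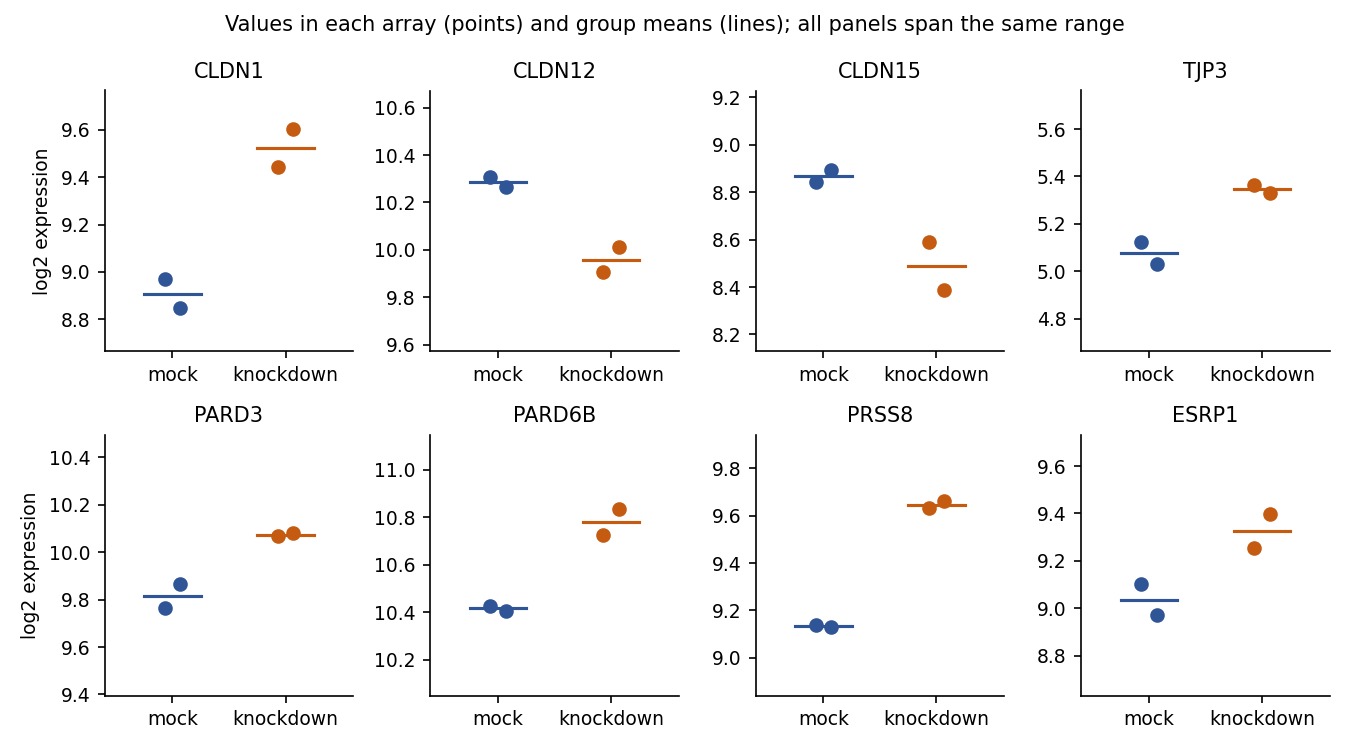
Values of the 8 genes with an unadjusted p under 0.05 in each of the 4 arrays (y axis, log2 expression), with points for arrays and lines for the means of 2 arrays; every panel spans the same range of log2 units. The groups do not overlap in any panel, and the gap is widest for PRSS8 (0.49) and CLDN1 (0.47).

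The MARVEL-domain proteins of the junction showed no such separation in size. Occludin (OCLN) read 9.32 and 9.32 in knockdown against 9.37 and 9.37 in mock arrays, a difference of -0.05 with an interval of 85.7% to 109% of mock. Tricellulin (MARVELD2), which seals the corners where cells meet, had a difference of -0.13 (adjusted p = 0.479), and its 2 other probe sets had 0.15 and -0.02. MARVELD3 had 0.05 at the main probe set and 0.28 and 0.13 at the others, none past the test.

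No scaffold passed the test, and TJP3 had the largest positive difference among them. TJP3 encodes ZO-3, which links claudins to actin, and read 5.36 and 5.33 in knockdown against 5.12 and 5.03 in mock arrays (11742865_a_at). The groups were apart by 0.21, and the difference was 0.27 (SE 0.0759, adjusted p = 0.193), at the only probe set of the gene and at a low signal. TJP1, which encodes the paralogue ZO-1, read 11.82 and 11.82 against 11.98 and 11.92. Its difference of -0.14 had an adjusted p of 0.424 and an interval of 80.4% to 103% of mock. With probe sets that can match other sequences left out, TJP1 was read at another one, where the difference was 0.03. Cingulin (CGN), which binds ZO proteins at the cytoplasmic face, read 9.49 and 9.49 against 9.35 and 9.27, a difference of 0.17 (adjusted p = 0.330). Its 2 other probe sets had 0.27 and 0.14.

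The start-proximal sequences of CLDN1, CLDN12 and TJP3 are shown because of the 8 genes at an unadjusted p under 0.05 they are those with a matched promoter window outside the annotated span of their own gene. They are the 250 bases before the annotated start, 5′ to 3′ on the strand of the gene, from RefSeq (GRCh38.p14). The windows are chr3:190322447-190322696 on the minus strand for CLDN1, chr7:90403211-90403460 on the plus strand for CLDN12 and chr19:3708134-3708383 on the plus strand for TJP3. The CLDN1 window lies inside the annotated span of the neighbouring claudin gene CLDN16, and the table does not say whether in an exon or an intron. Capitals mark the GC box, GGGCGG on either strand.
CLDN1: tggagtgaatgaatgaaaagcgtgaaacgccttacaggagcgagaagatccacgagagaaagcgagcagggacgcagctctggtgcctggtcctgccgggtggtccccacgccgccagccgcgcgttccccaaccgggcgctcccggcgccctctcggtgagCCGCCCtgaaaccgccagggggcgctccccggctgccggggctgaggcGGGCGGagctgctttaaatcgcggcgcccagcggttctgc
CLDN12: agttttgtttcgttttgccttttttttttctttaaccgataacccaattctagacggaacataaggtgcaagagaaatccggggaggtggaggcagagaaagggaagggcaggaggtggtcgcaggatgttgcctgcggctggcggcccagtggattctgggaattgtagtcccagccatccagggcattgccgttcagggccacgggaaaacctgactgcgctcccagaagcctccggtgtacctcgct
TJP3: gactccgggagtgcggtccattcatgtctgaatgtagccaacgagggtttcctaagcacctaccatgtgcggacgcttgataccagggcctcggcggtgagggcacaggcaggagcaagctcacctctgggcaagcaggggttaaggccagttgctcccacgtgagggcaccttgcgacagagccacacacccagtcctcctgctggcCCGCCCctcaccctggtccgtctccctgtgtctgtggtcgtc
CLDN1 held a GC box at 88 to 83 and another at 40 to 35 bases before the start, TJP3 held one at 42 to 37 bases, and the CLDN12 window held none. The window of CLDN15, not printed because it lies inside the annotated span of CLDN15 itself, held a GC box at 109 to 104 bases, so the GC box stood in windows of genes on both sides of 0.

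Of the 30 genes, 17 had promoter entries, with 27 windows in all because some genes have several annotated starts. CLDN8, CLDN23, MARVELD3, F11R, PARD3, PARD6B, EPCAM, ST14, PRSS8, SPINT2, ESRP1, ESRP2 and CDH3 had none. Each motif was searched by its letters on both strands, and each was counted by itself, whether or not it overlapped another. The GC box was in 17 of the 27 windows (63.0%) and in 42.6% of all 35116 windows. The E-box CAGGTG, the core that Snail and ZEB factors bind, was in 9 (33.3%, against 17.5%), in windows of CLDN7, CLDN18, OCLN, TJP1, TJP3, CRB3, PATJ and SPINT1. Of these 8 genes TJP3 alone was among those at an unadjusted p under 0.05, and its E-box lay in a window at a second start. The AP-1 motif TGANTCA was in 3 (11.1%, against 6.57%), of CLDN2, CLDN4 and CLDN15. The Grainyhead motif AACCGGTT was in 0 of 27 and in 0.117% of all. These are descriptions of letters, and binding was not measured.

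Among the polarity genes, PARD6B and its partner PARD3 had positive differences that did not pass the test. PARD6B, the adaptor of the PAR complex that holds atypical protein kinase C, read 10.72 and 10.84 in knockdown against 10.43 and 10.41 in mock arrays (11728587_a_at). The difference was 0.36 (SE 0.0778, adjusted p = 0.127), or 129% of mock (113% to 147%), with 0.25 at the second probe set. PARD3, the scaffold that recruits that complex to the junction, read 10.07 and 10.08 against 9.77 and 9.87 (11744454_a_at). Its difference was 0.26 (SE 0.0765, adjusted p = 0.207), and the 3 other probe sets had 0.29, 0.46 and 0.27. For both genes every knockdown array lay above every mock array, by gaps of 0.30 and 0.20.

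The Crumbs complex depended on which probe set was read. CRB3, the short Crumbs protein of epithelia, had a difference of 0.11 at its main probe set (8.33 and 8.32 against 8.21 and 8.23), and 0.26 and 0.12 at its 2 others. PATJ, the scaffold that joins Crumbs to ZO proteins, had means of 8.02 (SD 0.0406, n = 2) in knockdown and 8.03 (SD 0.0400, n = 2) in mock arrays at its main probe set, where the groups overlapped. That probe set can match other sequences. All 6 other probe sets of PATJ had positive differences, from 0.03 to 0.38, and 4 of them had an unadjusted p under 0.05, with a smallest adjusted p of 0.138. At 11760849_a_at, the highest of the unshared ones, PATJ read 7.90 and 8.05 against 7.71 and 7.64. At the remaining pair of other probe sets the groups overlapped, as at the main one. None of the 7 passed the test, and differences between probe sets were not tested.

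**Figure D3:**
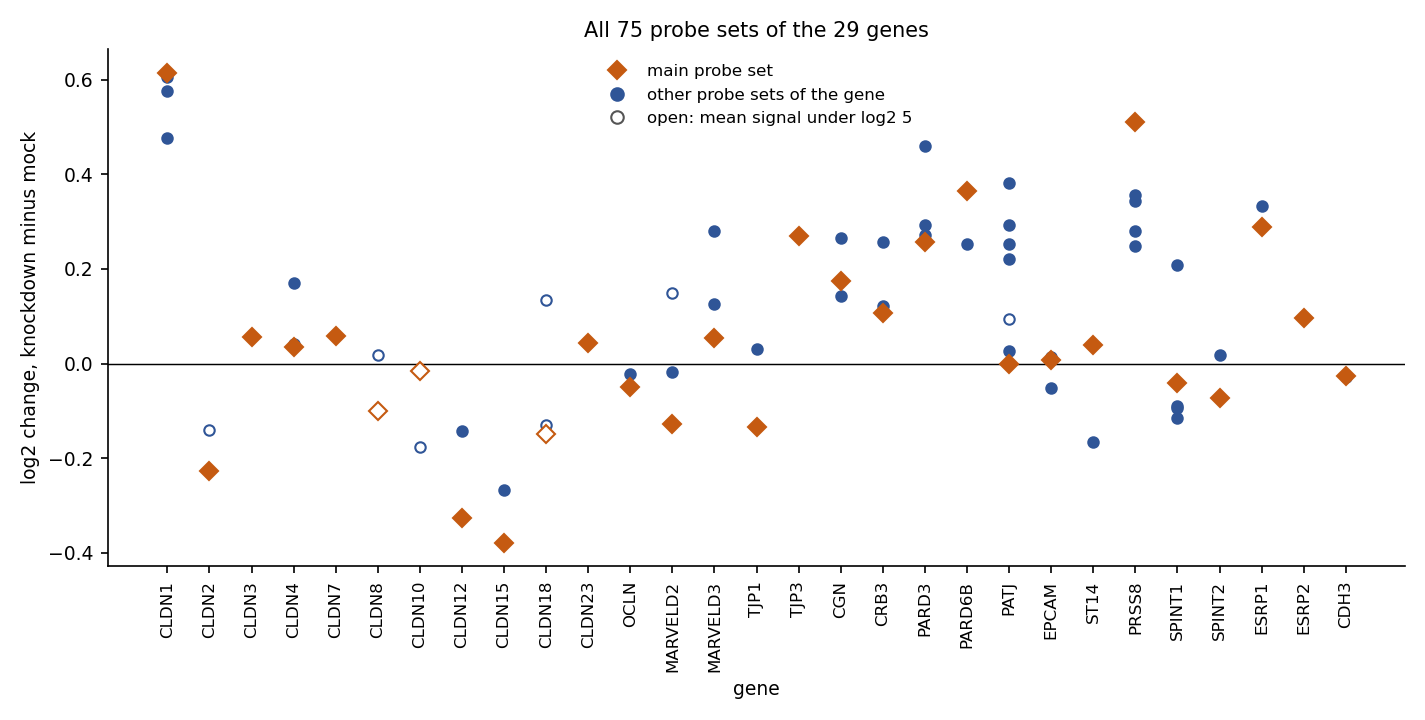
Differences between knockdown and mock (y axis, log2 units) at each of the 75 probe sets paired with 1 of the 29 genes (x axis); diamonds are main probe sets, circles the others, and open symbols have a mean signal under 5. The probe sets of CLDN1, PARD3 and PRSS8 all lie above 0, and the main one of PATJ, at 0.00, lies below its 6 others.

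Across all 29 genes, 46 probe sets stood beside the main ones, and 32 of these had the sign of the main one. Of the 29 main probe sets, 11 can match other sequences. For the 8 genes at an unadjusted p under 0.05 all 14 other probe sets had that sign. Of the 75 in all, 24 lay higher and 3 lower at that p, where 9.23% and 7.09% of all probe sets paired with 1 gene were. Probe sets of a gene share its transcripts and the arrays, and so are not independent measurements.

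Of the surface proteases and their inhibitors, PRSS8 had the largest difference. PRSS8 encodes prostasin, a membrane-anchored serine protease of epithelia, and read 9.63 and 9.66 in knockdown against 9.14 and 9.13 in mock arrays (11716541_a_at). The gap of 0.49 between the groups was the widest among the 29 genes. The SD was 0.0226 in knockdown and 0.00607 in mock arrays, each from only 2 arrays, and both were under the SE from limma. The difference was 0.51 (SE 0.0708, adjusted p = 0.0643), or 143% of mock with an interval of 126% to 161%. Its 4 other probe sets had 0.34, 0.25, 0.36 and 0.28, each smaller than the main one.

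ST14, which encodes matriptase, the protease that acts with prostasin, read 11.26 and 11.28 against 11.22 and 11.25. Its interval ran from 90.9% to 116% of mock, and its second probe set had -0.17. SPINT1 and SPINT2 encode the Kunitz inhibitors of both proteases and had differences of -0.04 and -0.07, with intervals of 84.7% to 112% and 84.2% to 107%. The other probe sets of SPINT1 had -0.09, -0.09, -0.12 and 0.21, the last with an adjusted p of 0.326. The second probe set of SPINT2 had 0.02. EPCAM, a surface protein that matriptase can cleave, read 12.95 and 13.05 against 12.96 and 13.02, with a difference of 0.01 and an interval of 87.9% to 115%. At the main probe sets the interval of PRSS8 thus began above the upper bound of each of these 4 genes. At the other probe sets of PRSS8 it began at 112%, 104%, 113% and 104% of mock, under the upper bound of ST14. The difference between the genes was not tested.

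ESRP1 and ESRP2 encode paralogous proteins that keep splicing in its epithelial form. ESRP1 read 9.26 and 9.40 in knockdown against 9.10 and 8.97 in mock arrays (11723543_a_at), a difference of 0.29 (SE 0.0913, adjusted p = 0.227), and its second probe set had 0.33. The groups were apart by 0.15. Without knockdown replicate 2, and likewise without mock replicate 2, the difference was 0.22. ESRP2 read 9.74 and 9.82 against 9.70 and 9.66, a difference of 0.10 (adjusted p = 0.584). CDH3, the P-cadherin of basal and foregut epithelia, read 9.77 and 9.82 against 9.81 and 9.83, and its interval ran from 86.8% to 111% of mock.

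**Figure D4:**
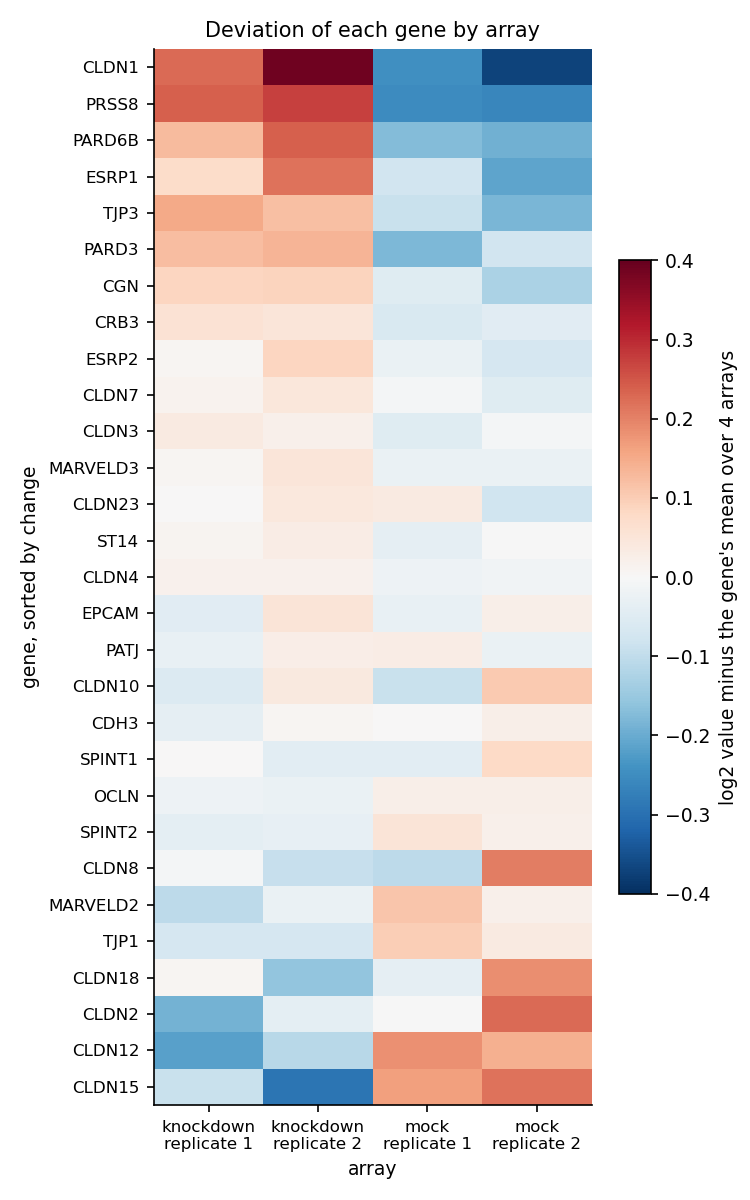
Deviation of each of the 29 genes (y axis, sorted by difference) from its own mean over the 4 arrays (colour, log2 units), by array (x axis). The genes at the top are high in both knockdown arrays, with CLDN1 most so in replicate 2 (9.60), and CLDN12 and CLDN15 at the bottom are high in both mock arrays.

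Beside the 30 genes, 70 others of the same junctions and pathways were listed, also with earlier results known, and 63 of them were measured. None passed the test (0.403% of all genes did), 8 were higher at an unadjusted p under 0.05 (12.7%, against 9.76%) and 3 were lower (4.76%, against 7.25%), and their median difference was 0.01. The adherens junction genes held 3 of the 8 higher ones among 9 measured (33.3%, against 9.76% of all genes). NECTIN4, a cell adhesion molecule of the immunoglobulin superfamily, read 9.13 and 9.20 in knockdown against 8.59 and 8.37 in mock arrays. Its difference was 0.69 (SE 0.0974, adjusted p = 0.0673), larger than that of any of the 29. NECTIN3 had 0.35, NECTIN1 had 0.18 and NECTIN2 had 0.17. For all 4 nectins the knockdown arrays lay above the mock arrays, as they did for 25.8% of all genes. E-cadherin (CDH1), the core adhesion protein of the adherens junction, read 12.11 and 12.15 against 11.99 and 12.04, a difference of 0.11 (adjusted p = 0.505).

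Other polarity genes had 3 higher and 1 lower among 20 measured (15% and 5%, against 9.76% and 7.25% of all genes). The paralogues of PARD6B differed in sign, PARD6A with 0.20 and PARD6G, at low signals, with -0.33. DLG1, a basolateral scaffold of the Scribble complex, had 0.27, and LIN7B, a partner of the Crumbs complex, had 0.29. Of 16 other junction membrane proteins and scaffolds, AMOTL2 was higher at an unadjusted p under 0.05, with 0.21, and TJAP1 was lower, with -0.20. Each is 6.25% of that list, against 9.76% higher and 7.25% lower of all genes. The adhesion receptor CXADR had 0.16 and the small GTPase RAB13 had 0.15. None of the 10 other claudins had an unadjusted p under 0.05, and their differences ran from -0.11 to 0.10. Among 8 relatives and targets of the surface proteases, SCNN1A, a subunit of the epithelial sodium channel that prostasin activates, read 10.93 and 10.93 in knockdown against 10.65 and 10.62 in mock arrays. Its difference was 0.29 (SE 0.0708, adjusted p = 0.152). The protease TMPRSS4 had -0.36 (adjusted p = 0.301), with 7.81 and 7.54 against 7.87 and 8.18.

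**Figure D5:**
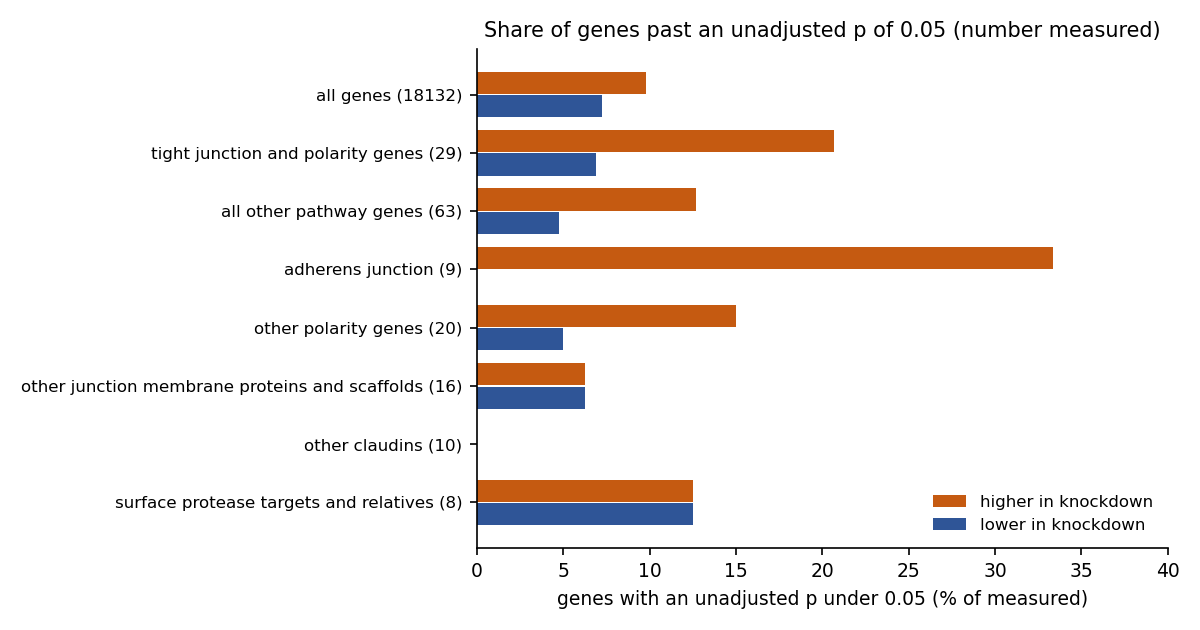
Share of measured genes with an unadjusted p under 0.05 in limma (x axis, percent), higher (orange) or lower (blue) in knockdown than in mock arrays, for all genes, the 29 genes and lists of other pathway genes (y axis, number measured in brackets). The 29 genes stand at 20.7% higher and 6.90% lower, beside 9.76% and 7.25% of all genes.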

How the data were processed

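The authors deposited a log2 value for every probe set and array. RMA and Partek are named, per the submitters' processing notes, without versions, and that the scale is log2 was inferred from this naming and the values' range. Replicate numbers are those of the sample titles. The 79 control probe sets were left out, which leaves 49293 tested. Gene symbols are those of the platform annotation, checked by Entrez identifier against RefSeq, and 44988 probe sets were paired with 1 gene. Knockdown was compared with mock by limma 3.58.1 in R 4.3.3, two-sided, on 4 arrays, with residual degrees of freedom of 2 and prior ones of 3.62. Genes at an unadjusted p under 0.05, or with groups more than 0.2 apart, are given array by array, and of each pathway list up to 4 genes with the smallest p are eligible to be named. The members and lists were chosen with earlier results of these data known. Alternatives were other scaling, a filter at 5, other choices of probe set, a trended prior, replicate blocks and leaving out each array. On data simulated for this comparison with 49293 probe sets, 50 were changed at each of 0.5, 1, 1.5 and 2 log2 units. The fit recovered 0 of 50 at 0.5 and 41 of 50 at 1, and 7 of its 146 calls were false. The noise was normal and independent between probe sets, with a spread drawn from limma's prior. Recovery at an adjusted p depends on how many probe sets change, so these shares need not hold for the real arrays. Arrays have no read depth, and precision is limited by their number. The series calls the replicates biological. No pairing of the arrays is stated, so the groups were not paired. Same-numbered arrays tended to deviate in opposite directions (correlation -0.202 over all probe sets and -0.360 over the measured members).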

Additional observations from a re-analysis of the deposited data

How the results depend on the processing

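The 8 leading genes (CLDN1, PRSS8, PARD6B, PARD3, TJP3, ESRP1, CLDN12 and CLDN15) had the same sign under all 12 alternatives run. The trended prior and the replicate blocks do not change a difference, and the filter kept the main probe sets of these genes. Where the groups do not overlap, as for these 8, leaving out 1 array cannot turn the sign. Only other scaling and other choices of probe set could have done so. The count of the 29 genes past an adjusted p of 0.05 was 2 with the arrays centred on their medians (CLDN1 and PRSS8, where 1.58% of all genes passed), 2 without dim probe sets (the same 2 genes, 4.09%), 1 with the mean of all probe sets of a gene (CLDN1, 1.96%) and 7 with a trended prior. In the other pathway genes it was 1, 1, 1 and 4. With quantile normalization it stayed at 0 for both. With unshared probe sets, which 25 of the genes have, 1 was lower at an unadjusted p under 0.05 (6.65% of all genes), since CLDN12 was read at its second probe set, and 8 were higher, with CRB3 and PATJ among them (9.21%). With the trended prior 15 of 63 pathway genes were higher (13.0% of all genes) and 5 lower (9.19%), and without dim probe sets their median was 0.052. With the replicate block 0 of the 29 passed, an unadjusted p under 0.05 was found for 6 on the higher side (6.95% of all genes) and 2 on the lower (4.92%), and 3 of 63 pathway genes were higher and 0 lower. With crossed numbers, an alternative added after seeing the data, these counts were 6, 2, 10 and 3, where 10.96% of all genes were higher and 9.09% lower. With 1 array left out 4 to 5 of the 29 were higher and 1 to 3 lower (5.23% to 8.05% and 4.29% to 6.59% of all genes), and 3 to 6 pathway genes were higher and 0 to 3 lower. ARID1A itself then had adjusted p-values of 0.244 to 0.521, as with the replicate block (0.217), so an adjusted p in these settings says nothing about stability. Some of these settings use fewer arrays or genes, and the cause of the shifts was not tested.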
